A study of Mus musculus with 6 samples.

Results

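The long non-coding RNA genes described here are Neat1, Malat1, Gas5, Snhg1, Snhg3, Snhg5, Snhg6, Snhg8, Snhg12 and Snhg15. They are the rows of the table whose identifier equals one of these names, 10 of 21719 genes in the table and 10 of its 5336 non-coding genes. RNA was sequenced from MPC5 cells, an immortalised mouse podocyte line (podocytes are the epithelial cells that wrap the capillaries of the kidney glomerulus). The design set 3 libraries labelled Setdb2KO, for knockout of the histone H3 lysine 9 methyltransferase Setdb2, against 3 libraries labelled Setdb2WT, and every library came from cells in high glucose. How the knockout was made, how many clones it rests on, and whether replicates were separate cultures were not stated in the labels, so the p-values measure the spread between these libraries, which may be technical.

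Small nucleolar RNAs (snoRNAs) guide the chemical modification of ribosomal RNA, and most of them are cut out of the introns of host genes. Gas5 and the Snhg genes are non-coding hosts: their spliced exons are exported, and several are known to be short-lived because translation of their short reading frames exposes them to nonsense-mediated decay (NMD). Many hosts, coding and non-coding, begin with a terminal oligopyrimidine (TOP) tract, the sequence through which translation of ribosomal protein mRNAs follows growth signals. Neat1 is the RNA scaffold of paraspeckles, nuclear bodies that hold splicing factors, and Malat1 is enriched in nuclear speckles, where SR splicing proteins are stored. Malat1 and the long transcript of Neat1 are kept stable by a triple helix at their 3′ ends in place of a poly(A) tail.

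The targeted gene, Setdb2, showed no fall with the Setdb2KO label. It had 17, 15 and 25 reads there, against 12, 10 and 9 reads in those labelled Setdb2WT, a log2 fold change of 0.73 (SE 0.38) that missed the threshold in edgeR (quasi-likelihood F test, Benjamini-Hochberg adjusted p = 0.0881). Gene totals do not show whether a deleted exon is missing, and the labels are used below as labels. Library totals ran from 36461449 to 37129174 reads. The libraries of each label differed from one another beyond counting noise, and replicate 2 of Setdb2KO stood apart: its chi-square per degree of freedom was 8.36 and 14.8 against the other Setdb2KO libraries, which gave 4.22 with each other, and the Setdb2WT pairs gave 2.51 to 2.65. Of the 15 podocyte markers listed, 11 were in the table; Synpo had 892 to 1027 reads in Setdb2KO and 1507 to 1549 in Setdb2WT libraries, whereas the defining transcription factors Wt1 and Lmx1b had at most 1 read in any Setdb2KO library and at most 2 reads in any Setdb2WT library. Summed markers of mesangial cells came to 19.9 to 22.6 CPM (reads of a gene per 1e6 library reads, scaled by TMM) in Setdb2KO and 54.7 to 58.8 CPM in Setdb2WT libraries, those of tubule cells to 383 to 403 and 624 to 638 CPM, those of endothelium to 15.1 to 16.2 and 16.0 to 17.6 CPM, and those of immune cells to 11.1 to 13.8 and 14.3 to 15.5 CPM. Single markers went both ways within these sums: of those tested, 4 of 4 mesangial markers were lower, 2 of 3 endothelial and 2 of 4 tubule markers were lower and the others higher, and 2 of 3 immune markers were higher. The tubule sum was mostly Cdh16, with 292 ± 7.12 CPM in Setdb2KO and 498 ± 7.64 CPM in Setdb2WT libraries. The part of these markers in the results below was not tested.

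The sequences around the transcription starts are shown first, because the host genes moved in both directions and their starts can be read side by side. Each line holds 40 bases before the annotated start and 40 from it, from RefSeq promoters on GRCm38.p6, an older build than the GRCm39 the submitters' processing notes name. Capitals mark a C followed by at least 4 pyrimidines within 10 bases of the start, or TATAAA on either strand beginning 35 to 20 bases before it.
Gas5, chr1:161035126-161035205, plus strand: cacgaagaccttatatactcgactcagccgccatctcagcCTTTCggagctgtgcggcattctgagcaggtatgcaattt
Snhg1, chr19:8723447-8723526, plus strand: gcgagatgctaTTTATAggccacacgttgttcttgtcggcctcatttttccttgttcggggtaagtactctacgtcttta
Snhg3, chr4:132353647-132353726, minus strand: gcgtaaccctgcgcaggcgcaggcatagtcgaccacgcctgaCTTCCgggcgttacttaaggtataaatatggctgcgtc
Snhg5, chr9:88522858-88522937, minus strand: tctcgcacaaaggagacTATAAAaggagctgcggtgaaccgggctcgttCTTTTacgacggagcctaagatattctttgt
Snhg8, chr3:123508297-123508376, minus strand: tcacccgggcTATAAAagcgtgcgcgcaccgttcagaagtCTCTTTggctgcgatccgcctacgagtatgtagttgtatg
Snhg12, chr4:132308638-132308717, plus strand: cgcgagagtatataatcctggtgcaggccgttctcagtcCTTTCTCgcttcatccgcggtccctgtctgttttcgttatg
Snhg15, chr11:6528721-6528800, minus strand: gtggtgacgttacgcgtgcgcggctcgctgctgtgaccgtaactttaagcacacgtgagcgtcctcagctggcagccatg

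The tract was found in the windows of Gas5 (at its second annotated start), Snhg3, Snhg5, Snhg8 and Snhg12, and not in those of Snhg1, Snhg15 or Malat1. By the first start of each gene, which is how all promoters were counted, 4 of the 8 genes with an entry had it, against 30.8% of 27025 promoters. This definition was settled after the windows were seen. The narrower one tried before it, at least 5 pyrimidines within 5 bases, was met at the first start by 2 of the 8, Snhg8 and Snhg12, against 10.2% of promoters. TATAAA was anywhere in the promoters of 4 of the 8 genes and in 14.2% of promoters, and lay 35 to 20 bases before the start in Snhg1, Snhg5 and Snhg8, against 2.49% of promoters. Other motifs were searched on both strands of the 300-base promoters: CACGTG was in 1 of the 8 (Snhg15) and 7.24% of promoters, CCAAT in 3 and 37.9%, GGGCGG in 5 and 35.9%, and TGATGNAA in 0 and 4.06%. The tract was present in hosts that were lower in Setdb2KO libraries and in Snhg12, which was higher. It began 9 bases after the annotated start in Snhg5 and 2 bases after it in Snhg3. The TATAAA of Snhg3 began 22 bases after that start. Whether transcription begins at the annotated starts in these cells was not tested.

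All 10 genes were measured well enough to be tested and all 10 passed, 4 higher and 6 lower in libraries labelled Setdb2KO. Most of the table did the same: 83.8% of 13509 tested genes passed, 41.5% higher and 42.3% lower, so a pass in itself does not set these genes apart. Non-coding genes leaned upward, with 54.8% of 1194 tested higher and 17.8% lower, and their median log2 fold change was 0.85, against 0.0045 over all tested genes. The 3 libraries of one label did not overlap the 3 of the other in any of the 10 genes, as in 84.6% of all tested genes. A change of at least 2-fold was reached by Neat1, Snhg12 and Snhg3, 3 of 10, against 32.6% of all tested genes. In bulk RNA a smaller number of expressing cells and less RNA per cell cannot be told apart.

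**Figure D1:**
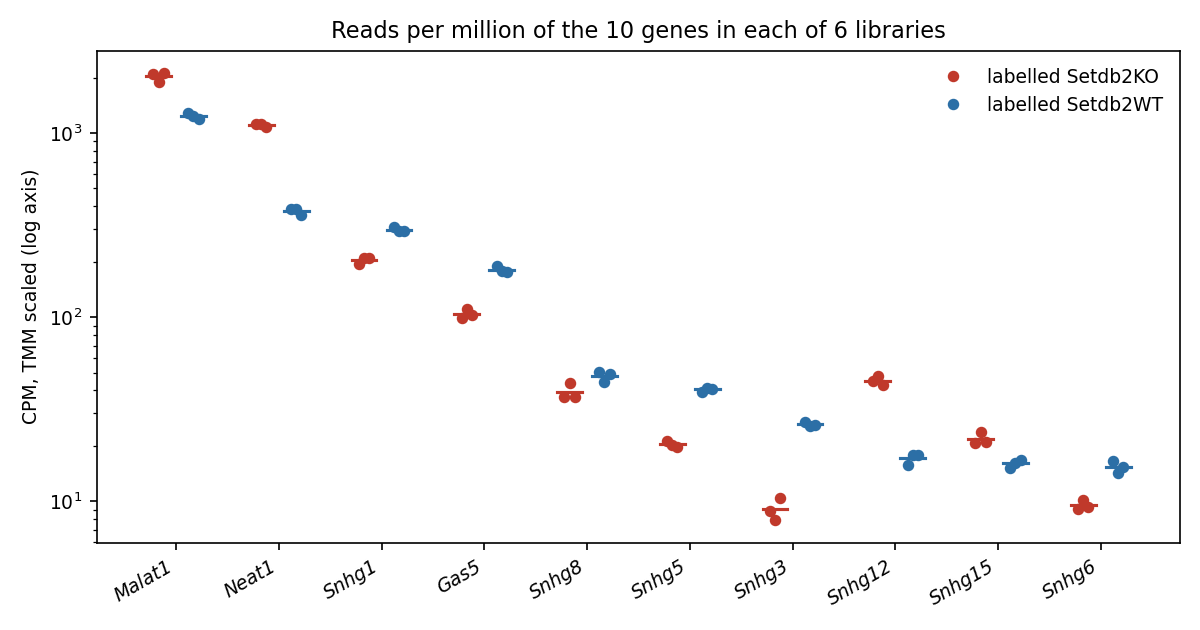
Level of each of the 10 genes in each library, in CPM scaled by TMM, on a log axis; the libraries labelled Setdb2KO stand left of those labelled Setdb2WT, and each bar is the mean of 3. The points of the 2 labels do not overlap for any gene, and the gap is narrowest for Snhg8 (43.86 CPM in the highest Setdb2KO library, 44.25 CPM in the lowest Setdb2WT library).

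Neat1 was 2.93-fold higher in libraries labelled Setdb2KO. It had 43545, 43229 and 41325 reads there, against 13462, 13648 and 12517 reads in those labelled Setdb2WT. Scaled for depth and composition, that is 1126, 1117 and 1077 CPM in Setdb2KO libraries, against 385, 387 and 360 CPM in Setdb2WT libraries. The lowest Setdb2KO library stood far above the highest Setdb2WT one, and the log2 fold change was 1.55 (SE 0.034, 95% interval 1.48 to 1.63; edgeR F test, Benjamini-Hochberg adjusted p = 2.85e-14). Neat1 is made as a short, polyadenylated and a long, paraspeckle-building transcript from one start, and counts per gene do not separate them.

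Malat1, second by mean CPM among the 1194 non-coding genes tested, was 1.65-fold higher. It gave 2093, 1899 and 2116 CPM in Setdb2KO libraries, against 1277, 1231 and 1190 CPM in Setdb2WT libraries. Replicate 2 was the lowest of the Setdb2KO libraries and still lay above every Setdb2WT library; without it the log2 fold change was 0.77, and with it 0.72 (SE 0.040, 95% interval 0.64 to 0.81; edgeR F test, Benjamini-Hochberg adjusted p = 5.35e-10). Neat1 and Malat1 lie next to each other on the minus strand of chromosome 19, with no other gene of the table between them, and Neat1 moved more: the ratio of Neat1 to Malat1 reads was 0.538, 0.588 and 0.509 in Setdb2KO libraries, against 0.302, 0.314 and 0.302 in Setdb2WT libraries. Together they made up 27.7% to 29.2% of non-coding reads in Setdb2KO libraries and 20.9% to 21.6% in Setdb2WT libraries. How fully these libraries captured RNA without a poly(A) tail was not tested. The levels, ratios and shares of Neat1 and Malat1 are therefore those of reads, not of RNA in the cell.

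Among the 8 snoRNA hosts, 6 were lower in libraries labelled Setdb2KO, beside 42.3% of all tested genes and 17.8% of tested non-coding genes. Gas5, which accumulates when growth stops and whose mouse locus holds 8 annotated snoRNA genes, averaged 104.0 ± 6.48 CPM in Setdb2KO and 180.9 ± 7.11 CPM in Setdb2WT libraries (SD, n = 3 each). Its reads numbered 3807, 4301 and 3928 in Setdb2KO libraries, against 6600, 6311 and 6087 in Setdb2WT libraries. The highest Setdb2KO library was well under the lowest Setdb2WT one, and Gas5 was 1.74-fold lower (log2 fold change -0.80, SE 0.045; edgeR F test, Benjamini-Hochberg adjusted p = 6.42e-10). Snhg1, which also holds 8 snoRNA genes, had 7516, 8149 and 7992 reads in Setdb2KO libraries, against 10752, 10383 and 10168 reads in Setdb2WT libraries. It was 1.46-fold lower (log2 fold change -0.54, SE 0.037), averaging 204.4 ± 8.78 CPM in Setdb2KO and 298.1 ± 8.26 CPM in Setdb2WT libraries.

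Among the 8 hosts, Snhg3 fell the most. This host of Snora73a and Snora73b had 343, 305 and 397 reads in Setdb2KO libraries, against 943, 900 and 907 reads in Setdb2WT libraries, which is 9.03 ± 1.24 CPM in Setdb2KO and 26.2 ± 0.732 CPM in Setdb2WT libraries (SD, n = 3 each). It was 2.90-fold lower, its log2 fold change being -1.54 (SE 0.088; 95% interval -1.73 to -1.35; edgeR F test, Benjamini-Hochberg adjusted p = 6.77e-10). Snhg5, a host of C/D box snoRNAs, had 817, 780 and 759 reads in Setdb2KO libraries, against 1370, 1460 and 1421 reads in Setdb2WT libraries. It was 1.99-fold lower (log2 fold change -0.99, SE 0.054), just inside 2-fold, and averaged 20.4 ± 0.692 CPM in Setdb2KO and 40.5 ± 1.15 CPM in Setdb2WT libraries.

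Snhg6, the host of Snord87, had 353, 391 and 356 reads in Setdb2KO libraries, against 576, 505 and 531 reads in Setdb2WT libraries, and was 1.62-fold lower (log2 fold change -0.69, SE 0.083; edgeR F test, Benjamini-Hochberg adjusted p = 2.68e-06). Snhg8, the host of Snora24, moved least of all 10. It gave 36.8, 43.9 and 37.0 CPM in Setdb2KO libraries, against 50.6, 44.3 and 48.8 CPM in Setdb2WT libraries, so replicate 2 of each label nearly met. The change was 1.22-fold lower (log2 fold change -0.29, SE 0.070, 95% interval -0.44 to -0.14; edgeR F test, Benjamini-Hochberg adjusted p = 0.00172). Scaled by total reads alone, Snhg8 did not pass (log2 fold change -0.13, adjusted p = 0.0911). That scaling moved the median of all genes up by 0.154 on the log2 scale, and the direction of all 10 genes held under it.

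Snhg12 and Snhg15 were the hosts that were higher. Snhg12, whose locus holds Snora16a, Snora44, Snora61 and Snord99, had 1735, 1863 and 1633 reads in Setdb2KO libraries, against 551, 629 and 622 reads in Setdb2WT libraries. It averaged 45.2 ± 2.79 CPM in Setdb2KO and 17.2 ± 1.21 CPM in Setdb2WT libraries (SD, n = 3 each), 2.63-fold higher (log2 fold change 1.40, SE 0.066, 95% interval 1.25 to 1.54; edgeR F test, Benjamini-Hochberg adjusted p = 8.54e-11). Every Setdb2KO library was more than 1000 reads above every Setdb2WT library. Snhg15 had 804, 915 and 808 reads in Setdb2KO libraries, against 529, 570 and 586 reads in Setdb2WT libraries, and was 1.36-fold higher (log2 fold change 0.44, SE 0.073; edgeR F test, Benjamini-Hochberg adjusted p = 5.78e-05). Replicate 2 was the highest Setdb2KO library for 6 of the 10 genes (Gas5, Snhg1, Snhg6, Snhg8, Snhg12 and Snhg15). It was the lowest for Malat1 and Snhg3. Over all tested genes it was the highest in 45.5% and the lowest in 29.2%. Without it the log2 fold changes were 1.35 for Snhg12, 0.38 for Snhg15, -0.37 for Snhg8 and -1.45 for Snhg3.

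**Figure D2:**
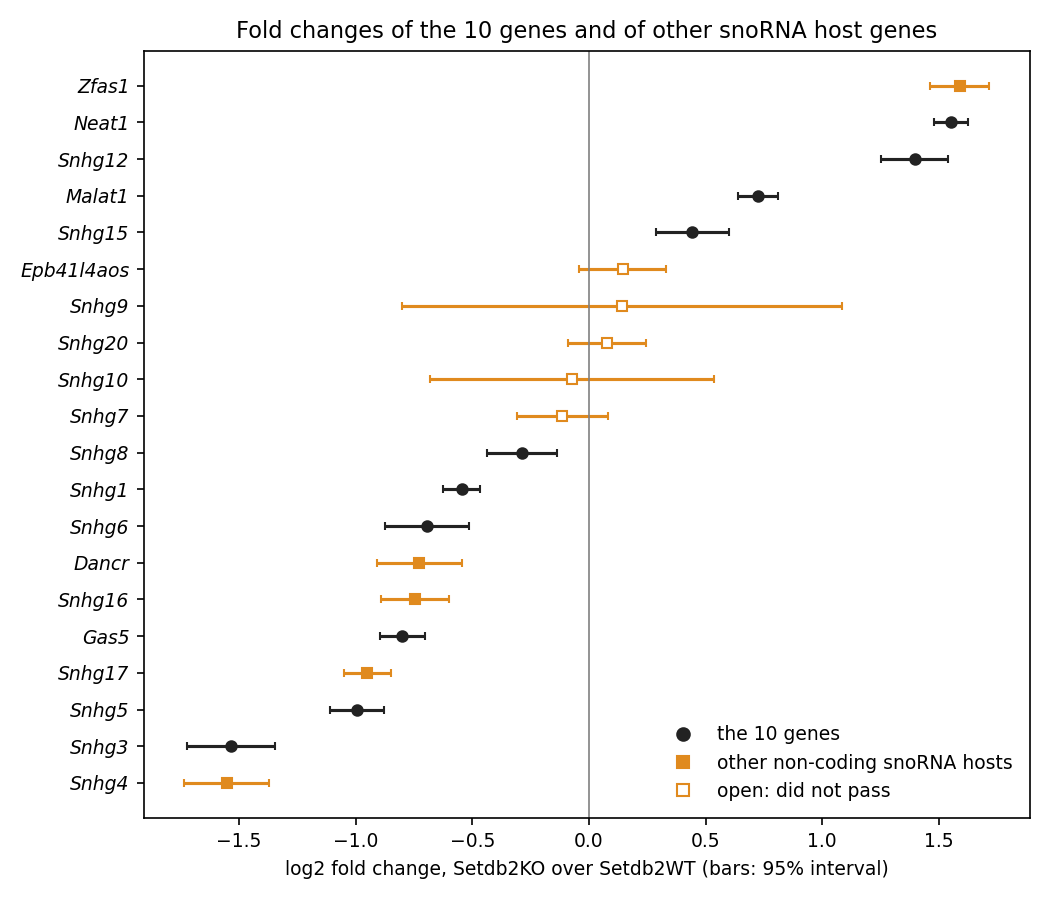
Log2 fold change, Setdb2KO over Setdb2WT, of the 10 genes (black circles) and of other non-coding snoRNA hosts (orange squares, open where the test was not passed), with 95% intervals from edgeR. Of the 10, Neat1 (1.55), Snhg12 (1.40), Malat1 (0.72) and Snhg15 (0.44) lie right of 0 and the other 6 left of it, from Snhg8 (-0.29) to Snhg3 (-1.54).

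Neat1 and Malat1 outweighed the hosts in the total. The 8 hosts together had 16800, 18402 and 17293 reads in Setdb2KO libraries, against 23088, 22318 and 22020 reads in Setdb2WT libraries, while the 10 genes together took 0.368% to 0.387% of all reads in Setdb2KO and 0.207% to 0.220% in Setdb2WT libraries. All non-coding genes took 1.14% to 1.21% of reads in Setdb2KO and 0.701% to 0.734% in Setdb2WT libraries. With the 10 genes left out the shares were 0.775% to 0.830% in Setdb2KO and 0.494% to 0.514% in Setdb2WT libraries, so the higher non-coding share was not confined to these genes. The part of this shift in any single gene's change was not tested.

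Ratios of reads within a library need no scaling between libraries. Snhg12 and Snhg3 lie close together on chromosome 4, on opposite strands and with Trnau1ap and Rcc1 between them, and moved in opposite directions: the ratio of Snhg12 to Snhg3 reads was 5.06, 6.11 and 4.11 in Setdb2KO libraries, against 0.584, 0.699 and 0.686 in Setdb2WT libraries. Snhg12 was thus the more abundant of the pair in every Setdb2KO library and the less abundant in every Setdb2WT library. The ratio of Zfas1, another snoRNA host, to Gas5 averaged 1.26 ± 0.0481 in Setdb2KO and 0.241 ± 0.016 in Setdb2WT libraries, and that of Snhg15 to Snhg5 averaged 1.07 ± 0.0948 in Setdb2KO and 0.396 ± 0.0141 in Setdb2WT libraries. Hosts that fell together also kept unequal pace: the ratio of Snhg8 to Snhg6 averaged 4.12 ± 0.192 in Setdb2KO and 3.12 ± 0.0697 in Setdb2WT libraries, and that of Snhg1 to Gas5 averaged 1.97 ± 0.0702 in Setdb2KO and 1.65 ± 0.0208 in Setdb2WT libraries (SD, n = 3 each). The labels did not overlap in any of these 6 ratios, whose pairs were chosen after the values were seen. A two-sided exact permutation test gave p = 0.1 for each, raw and adjusted over the 6, which is the smallest that 3 against 3 allows.

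**Figure D3:**
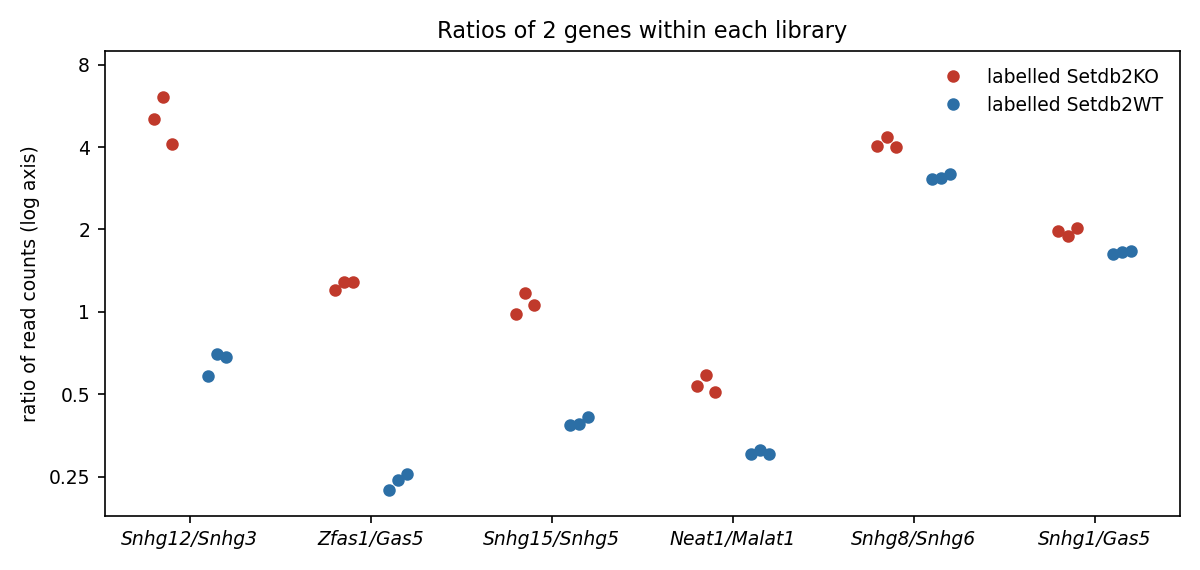
Ratio of the reads of 2 genes within each library, on a log axis, Setdb2KO left of Setdb2WT in each pair. Snhg12 over Snhg3 lies above 4 in the Setdb2KO libraries and below 1 in the Setdb2WT libraries, and Snhg1 over Gas5 shows the narrowest gap between labels.

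To compare levels between genes, CPM were divided by the length of all annotated exons (GENCODE M21, retained introns included). That length joins all transcripts of a gene, short and long: 20771 bases for Neat1, 2969 for Snhg1, 853 for Snhg8 and 986 for Snhg3. Counts per gene do not show which transcripts the reads came from, so the order between genes depends on this annotation. Malat1 was highest under both labels, at 292 ± 17.1 CPM per kilobase in Setdb2KO and 177 ± 6.26 in Setdb2WT libraries (SD, n = 3 each), and Snhg1 came next at 68.8 ± 2.96 in Setdb2KO and 100 ± 2.78 in Setdb2WT libraries. Neat1 followed Snhg1 in Setdb2KO libraries (53.3 ± 1.24 CPM per kilobase) but ranked below Snhg8, Gas5, Snhg3 and Snhg5 in Setdb2WT libraries (18.2 ± 0.732). Snhg8 (46.0 ± 4.69 in Setdb2KO, 56.1 ± 3.82 in Setdb2WT libraries) and Gas5 (27.6 ± 1.72 in Setdb2KO, 48.1 ± 1.89 in Setdb2WT libraries) followed in the middle of both orders. Snhg12 ranked above Snhg15, Snhg5, Snhg3 and Snhg6 in Setdb2KO libraries (18.8 ± 1.16) and last in Setdb2WT libraries (7.14 ± 0.504), whereas Snhg3 stood above only Snhg6 in Setdb2KO libraries (9.16 ± 1.26) and just below Gas5 in Setdb2WT libraries (26.6 ± 0.742). The lowest places in Setdb2KO libraries, Snhg3 and Snhg6 (8.29 ± 0.457), overlapped; no other neighbours in either order did.

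The genes next to the 10 went both ways. Neat1 and Malat1, each the other's neighbour, were both higher and are left out of the counts that follow. Of 16 other tested neighbours reported here, 6 were higher, 7 lower and 3 did not pass, beside 41.5% higher and 42.3% lower over all tested genes; 7 passed in the direction of the gene beside them and 6 against it. Beside Neat1, Frmd8 was higher (log2 fold change 0.43). Snhg1 stands head to head with Slc3a2, the heavy chain of amino acid transporters, which averaged 562.9 ± 22.2 CPM in Setdb2KO and 349.2 ± 8.62 CPM in Setdb2WT libraries (log2 fold change 0.69) while Snhg1 was lower. Snhg12 stands beside Trnau1ap, a selenocysteine tRNA factor on the other strand, which averaged 16.5 ± 1.3 CPM in Setdb2KO and 28.4 ± 0.172 CPM in Setdb2WT libraries (-0.78) while Snhg12 was higher. Taf12, the other neighbour of Snhg12 and on its strand, was higher with it (0.44). Rcc1, the exchange factor of Ran, lies beside Snhg3 on the same strand and was lower with it (-0.69). Phactr4, on the other side of Snhg3 and also on its strand, was higher (0.40). Syncrip was lower beside Snhg5 (-0.47), whose other neighbour Zfp949 was higher (2.27). Sgk3 was lower beside Snhg6 (-1.81) and Ndst3 lower beside Snhg8 (-2.17), whereas Ccm2 was lower (-0.39) beside Snhg15, which was higher. Leaving out single libraries changed the calls of Cenpl beside Gas5 (0.22 without Setdb2KO replicate 1, where it passed), Wdr74 beside Snhg1 (-0.09 without Setdb2KO replicate 1, where it no longer passed) and Tcf24 beside Snhg6 (0.52 without Setdb2KO replicate 2 and 0.49 without Setdb2WT replicate 2, where it passed).

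Gas5 overlaps Zbtb37, annotated on the opposite strand, and Snhg6 overlaps Mcmdc2. Whether counting used strand was not stated, so reads in these overlaps cannot be told apart. Zbtb37 had a log2 fold change of -0.09 (edgeR F test, Benjamini-Hochberg adjusted p = 0.273; -0.16 without Setdb2KO replicate 3, where it passed), and 0.064 under total-count scaling. Mcmdc2 had 0, 2 and 1 reads in Setdb2KO libraries and none in Setdb2WT libraries.

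**Figure D4:**
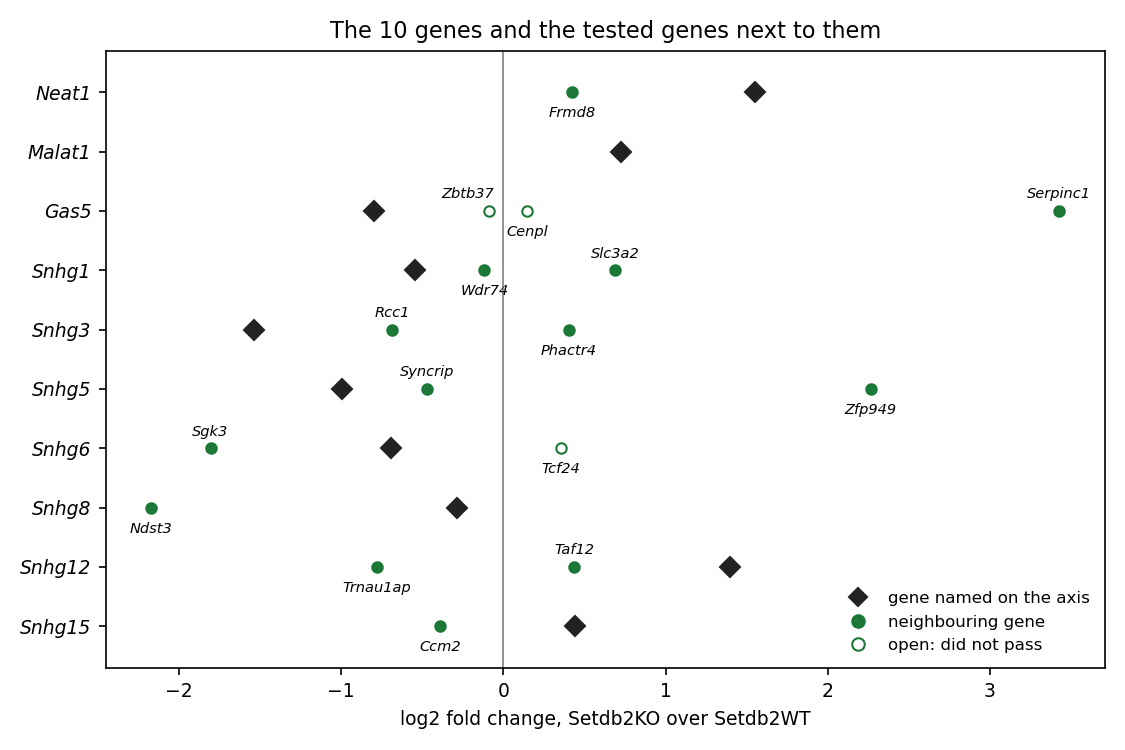
Log2 fold change, Setdb2KO over Setdb2WT, of each of the 10 genes (diamonds) and of tested genes next to it (circles, open where the test was not passed). Slc3a2 lies right of 0 beside Snhg1, which lies left of it, and Trnau1ap lies left of 0 beside Snhg12, which lies right of it.

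Among the other non-coding snoRNA hosts, of 10 tested, 1 was higher, 4 were lower and 5 did not pass. Over all tested genes 41.5% were higher and 42.3% lower, and over non-coding genes 54.8% and 17.8%. The median log2 fold change of these hosts, -0.09, became 0.060 when scaled by total reads. Zfas1 had 4586, 5540 and 5059 reads in Setdb2KO libraries, against 1479, 1541 and 1556 reads in Setdb2WT libraries. It was 3.01-fold higher (log2 fold change 1.59, SE 0.059; edgeR F test, Benjamini-Hochberg adjusted p = 5.91e-12). Snhg4, the host of Snora74a, averaged 5.37 ± 0.2 CPM in Setdb2KO and 15.8 ± 0.51 CPM in Setdb2WT libraries (-1.55), and Snhg17 averaged 33.1 ± 1.45 CPM in Setdb2KO and 64.0 ± 1.73 CPM in Setdb2WT libraries (-0.95). Snhg7, Snhg9, Snhg10, Snhg20 and Epb41l4aos lay between -0.11 and 0.14 and did not pass. Snhg10 and Snhg20 were listed by name, and no gene annotated as a snoRNA lies inside either in the older build. No row of the table is named Snora or Snord, and snoRNAs themselves were not analysed here.

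Protein-coding hosts mostly fell. Of 35 tested, 30 were lower (42.3% of all tested genes were), 2 higher (41.5% of all) and 3 short of the threshold. The median log2 fold change was -0.53, against 0.0045 over all tested genes. Under total-count scaling 27 were lower and 5 higher. The chaperone gene Hspa8 averaged 308.7 ± 13.4 CPM in Setdb2KO and 2016 ± 26.8 CPM in Setdb2WT libraries (-2.71), and the translation initiation helicase Eif4a1 averaged 381.2 ± 10.6 CPM in Setdb2KO and 1135 ± 16.7 CPM in Setdb2WT libraries (-1.57). The small-subunit ribosomal protein gene Rps2 stood at -1.70. The 2 higher genes were Hspa9 (0.70) and Tpt1 (0.083), and Eef2, Eif4a2 and Rpl23 did not pass. Most of the 35 are ribosomal protein genes, and whether the fall goes with hosting snoRNAs or with that make-up of the list was not tested. Setdb2KO replicate 2 was the highest of its label in 30 of these 35 genes, against 45.5% of all tested genes. Of 19 core proteins and assembly factors of the snoRNA particles, 14 were lower and 4 higher, with a median of -0.41: Dkc1, the pseudouridine synthase of H/ACA particles, averaged 41.2 ± 2.56 CPM in Setdb2KO and 146.6 ± 0.853 CPM in Setdb2WT libraries (-1.83), and Nop56, a core protein of C/D particles, averaged 114.7 ± 2.35 CPM in Setdb2KO and 380.4 ± 10.3 CPM in Setdb2WT libraries (-1.73). Dkc1 and Nop56 stand in both lists.

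Factors of NMD moved in both directions, as did all tested genes (41.5% higher and 42.3% lower). Of 18 tested, 7 were higher and 10 lower, with a median of -0.21. The central helicase Upf1 was higher (0.47) and so was Smg8 (0.79), whereas Smg5, which recruits decay enzymes, was lower (-0.87). Of 10 protein-coding transcripts described as NMD substrates, 8 were higher and 2 lower, with a median of 1.13, against 0.0045 over all tested genes. Those with the smallest adjusted p were the stress genes Ddit3 (160.3 ± 2.14 CPM in Setdb2KO and 20.3 ± 1.59 CPM in Setdb2WT libraries, 2.98), Gadd45b (2.25) and Atf3 (1.92), which are also induced by other stress signals.

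Of 18 tested paraspeckle proteins, 10 were lower (42.3% of all tested genes were), 4 higher (41.5% of all) and 4 short of the threshold (median -0.18); scaled by total reads, 9 were lower and 8 higher. Pspc1, which binds Neat1 in the paraspeckle core, averaged 18.7 ± 0.903 CPM in Setdb2KO and 71.0 ± 1.93 CPM in Setdb2WT libraries (-1.93), and its partners Nono (-0.68) and Sfpq (-0.44) were lower too. Hnrnph3 was higher (1.23). Among nuclear speckle and SR proteins 11 of 19 were lower and 5 higher, with a median of -0.22. Srsf6 averaged 97.8 ± 5.59 CPM in Setdb2KO and 417.7 ± 7.03 CPM in Setdb2WT libraries (-2.10), and Srsf5 (-1.69) and Srsf2 (-1.48) were lower, whereas the speckle scaffold Son (0.83) and the SR kinase Clk1 (1.53) were higher. Setdb2KO replicate 2 was the lowest of its label in 14 of these 19 genes, against 29.2% of all tested genes. Of 11 tested genes that trim or bind the 3′ ends of Neat1 and Malat1, 6 were lower, 3 higher and 2 did not pass; the RNase P subunit Pop1 stood at -1.31, the RNase Z gene Elac2 at -0.90 and Rpp30 at 0.69.

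Gas5 is known in human cells to bind the glucocorticoid receptor as a decoy. The receptor gene Nr3c1 was higher (0.39). Among 8 genes that include it and its classic targets 3 were higher and 5 lower, beside 41.5% and 42.3% of all tested genes. Fkbp5 averaged 21.2 ± 1.04 CPM in Setdb2KO and 204.6 ± 4.45 CPM in Setdb2WT libraries (-3.27) and Zbtb16 stood at -4.41, whereas Klf9 was higher (1.19). Among 13 other well-known long non-coding RNAs, 8 were higher and 4 lower, with a median of 0.50. Over all tested non-coding genes 54.8% were higher and 17.8% lower, with a median of 0.85. Tug1 is labelled protein-coding in the deposited counts, so it is not among those non-coding genes. It averaged 255.4 ± 22.5 CPM in Setdb2KO and 81.8 ± 0.892 CPM in Setdb2WT libraries (1.64). Hotair averaged 4.69 ± 0.671 CPM in Setdb2KO and 0.342 ± 0.203 CPM in Setdb2WT libraries (3.76), and Mir22hg was lower (-0.95).

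**Figure D5:**
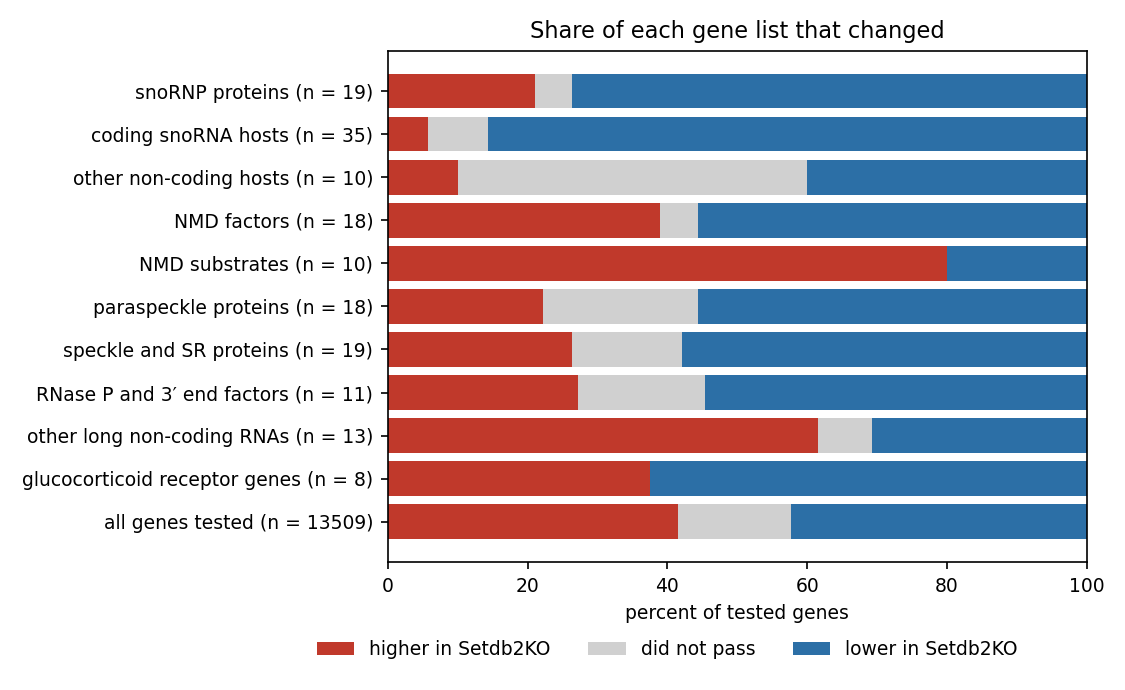
Percent of the tested genes in each list that were higher in Setdb2KO libraries (red), did not pass (grey) or were lower (blue), with all 13509 tested genes at the bottom. The protein-coding snoRNA hosts are mostly blue (30 of 35), the substrates of NMD mostly red (8 of 10), and all genes nearly even (41.5% higher, 42.3% lower).

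The genes whose profile over the 6 libraries lay closest to each of the 10, by Euclidean distance of centred log2 CPM, came from across the table. Bscl2 was closest to Neat1 (distance 0.0556), Zfp68 to Malat1 (0.0501), P3h1 to Gas5 (0.0575), Smtnl2 to Snhg1 (0.0407) and Abcb10 to Snhg5 (0.0483). Krcc1 was closest to Snhg3 (0.112), Uaca to Snhg6 (0.0601), Dnajc15 to Snhg8 (0.0532), Hrob to Snhg12 (0.115) and Ccs to Snhg15 (0.0731). None of the 10 was the closest gene of another.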

How the data were processed

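RNA-seq libraries from total RNA of MPC5 cells were read as a deposited table of counts per gene, whole and not normalized. Per the submitters' processing notes the tools were fastp, HISAT and HTSeq and the build GRCm39; their versions, the annotation and whether strand was used were not stated. All 6 columns matched a labelled sample. Counts were filtered with filterByExpr, scaled by TMM and tested with edgeR 4.0.16 (quasi-likelihood F test, genotype term, R 4.3.3); p-values were adjusted by Benjamini-Hochberg over all 13509 genes tested, with a threshold of 0.05. Totals of 36461449 to 37129174 reads set the precision. Values are CPM scaled by TMM; SE is the log2 fold change over the square root of F. The script was tested on simulated data.

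The 10 genes, the gene lists and the tests were chosen with earlier results of these data known. Named genes are the 10, their nearest neighbours, up to 3 per list by smallest adjusted p, Setdb2 and the closest profiles, apart from some genes not reported here; further list members (among them Snhg7, Snhg9, Snhg10, Snhg20, Epb41l4aos, Nono, Sfpq, Son, Clk1 and Nr3c1) were named after their values were seen. Every motif and both tract definitions searched in RefSeq promoters are given, and the set was settled after the windows were seen. Alternatives were other scalings, DESeq2 1.42.0, limma-voom 3.58.1, other filters, the replicate number as a block and each library left out.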

Additional observations from a re-analysis of the deposited data

How the results depend on the processing

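The count of genes past the threshold was 11318 and lay between 10380 and 12183 over 14 alternatives, and between 11067 and 11496 when one library was left out. Over 10 genes and 14 alternatives, 139 of 140 values kept direction and call; the exception was Snhg8 under total-count scaling (-0.13), which left 5 genes lower in place of 6. Replicate numbers did not pair the libraries: deviations of same-numbered libraries correlated at 0.000719, -0.0301 and -0.0117, and 0 libraries were closest to their own number. With the replicate block 11190 genes passed, and 4 of the 10 were higher and 6 lower.

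The alternatives were also read for 47 other named genes: Setdb2, the tested neighbours and the genes picked per list by adjusted p. Closest profiles and list members named after their values were seen were not among them. For these 47 genes, 642 values kept direction and call, 10 gained and 2 lost the call. Another 2 turned, both under total-count scaling: Zbtb37 to 0.064 and Wdr74 to 0.037. The cause was not tested, though that scaling moved the median of all genes by 0.154. Setdb2 passed under it (0.88, adjusted p = 0.043 by edgeR). List counts that moved over 1.5 times under it were other non-coding hosts higher (1 to 3), protein-coding hosts higher (2 to 5; 1 with the replicate block and without Setdb2WT replicate 1 or 2), NMD substrates lower (2 to 1) and paraspeckle proteins higher (4 to 8). Snhg3, Snhg6 and Snhg15 rest on 305 to 943 reads per library, and with 3 libraries per label no exact test could go below 0.1.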
